A study of Mus musculus with 6 samples.

Results

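The genes described here are 10 transcription factors that direct the fate of blood cells, namely Gata1, Gata2, Gfi1, Gfi1b, Cebpa, Cebpb, Cebpe, Spi1, Myb and Tal1. They were chosen by name, and each had 1 row among the 54532 genes of the count table. Of these, 6 were read at 1300 counts or more in every library and 4 at 31 counts or fewer, and none differed between the 2 regions of the bone marrow at an adjusted p under 0.05.

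AE9a leukemia cells carry AML1-ETO9a, a short splice form of the fusion of RUNX1 (AML1) with ETO. In this mouse model, c-Kit+ stem and progenitor cells were transduced with a retrovirus carrying AE9a and GFP, and the resulting leukemia was passed on by serial transplantation in C57BL/6 mice. The cells sequenced came from the third round of transplants, and all 6 libraries are labelled as AE9a leukemia cells. The paper's methods for these libraries name no sort for GFP, and reads of AE9a were not examined, so other cells may be present. There were 3 libraries of central bone marrow (CBM), flushed from femurs and tibias, and 3 of endosteal bone marrow (EBM), released from such bones by collagenase I after the flush. Neither group is labelled with a drug, and the age of the mice at harvest is not given in the sources used here. CBM cells were not digested, so region and digestion cannot be told apart. The labels do not say whether the replicates were separate mice, so p-values measure only the spread between these samples, which may be technical. The model rests on 1 retroviral transgene, and whether the libraries descend from 1 primary leukemia is not stated.

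Gata2 and Gata1 are zinc finger factors that bind GATA motifs. GATA2 is known for stem, progenitor and mast cells and GATA1 for red cells, megakaryocytes and mast cells. Tal1 (SCL) encodes a helix-loop-helix factor that joins GATA factors in one complex through LMO2 and LDB1. Gfi1b and Gfi1 encode related repressors, used mainly in erythroid and megakaryocytic cells in the first case and in granulocytes in the second. Spi1 encodes PU.1, an ETS factor of myeloid and B cells, and Cebpa, Cebpb and Cebpe encode C/EBP leucine zipper factors of granulocytes and monocytes. Myb encodes a factor of proliferating progenitors.

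The genes lie on 8 chromosomes of the mouse build GRCm38, with positions from the deposited table and exons from GENCODE M21. Gata2 (chr6:88193891-88207032, plus strand) and Gata1 (chrX:7959260-7978071, minus strand) have 6 exons each in the transcript with the longest coding sequence. Tal1 (chr4:115056426-115071755, plus) has 5 exons, and Gfi1b (chr2:28609450-28621982, minus) and Gfi1 (chr5:107716657-107726036, minus) have 7 each. Spi1 (chr2:91082390-91115756, plus) has 5 exons and Myb (chr10:21124935-21160984, minus) has 16. Cebpa (chr7:35119293-35121928, plus) and Cebpb (chr2:167688915-167690418, plus) have no intron, and Cebpe (chr14:54710360-54712174, minus) has 2 exons.

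Because GATA factors and TAL1 are known to bind their own and each other's genes, the bases upstream of the start sites were searched for short motifs. RefSeq windows of 250 bases before a start on GRCm38.p6 were matched by symbol for 8 of the 10 genes, as 11 windows. The motifs searched on both strands were GATAA for GATA factors, TTGCNNAA for C/EBP factors, GAGGAAG for PU.1, TGTGGT for RUNX factors, CAGATG as an E-box, AACNGTT for MYB and AAATCAC for GFI factors. A GATAA match stood in 2 windows, against 22.6% of all 32851 windows of this length. These were the Gfi1b window, at bases -119 to -115 from the start, and the first of the Tal1 windows, at bases -205 to -201 on the opposite strand, where it reads TTATC. A C/EBP match was found beside it in the Tal1 window, at bases -199 to -192, and in 1 Gfi1 window, at bases -143 to -136, against 9.56% of all windows. The other 5 motifs had no match, against 10.6% of windows for PU.1, 14.0% for RUNX, 14.4% for the E-box, 3.80% for MYB and 2.75% for GFI. The 2 windows with a GATAA match are shown with it in capitals, and the Cebpa window, which has a match to none of the 7 motifs, is shown for comparison, each on its gene's strand. They are chr2:28621983-28622232 (minus) for Gfi1b, chr4:115056176-115056425 (plus) for Tal1 and chr7:35119043-35119292 (plus) for Cebpa.
Gfi1b: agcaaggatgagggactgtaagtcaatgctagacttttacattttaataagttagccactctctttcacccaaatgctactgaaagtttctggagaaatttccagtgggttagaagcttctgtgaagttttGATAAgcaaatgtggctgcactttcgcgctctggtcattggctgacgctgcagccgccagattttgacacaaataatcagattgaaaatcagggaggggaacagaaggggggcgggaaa
Tal1: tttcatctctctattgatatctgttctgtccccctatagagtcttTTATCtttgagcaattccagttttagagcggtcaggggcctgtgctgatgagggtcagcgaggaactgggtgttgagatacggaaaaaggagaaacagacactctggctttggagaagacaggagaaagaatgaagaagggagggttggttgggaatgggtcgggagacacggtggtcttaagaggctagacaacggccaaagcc
Cebpa: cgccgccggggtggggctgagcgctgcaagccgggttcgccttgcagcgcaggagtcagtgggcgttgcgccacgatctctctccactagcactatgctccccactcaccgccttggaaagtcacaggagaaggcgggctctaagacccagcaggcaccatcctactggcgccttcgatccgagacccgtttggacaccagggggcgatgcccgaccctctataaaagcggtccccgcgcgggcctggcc
A match describes these letters only and is not a measured binding site.

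Libraries held between 16436526 and 19462964 counts on genes. CPM, the counts scaled to library size, were corrected by the trimmed mean of M values, and a floor of 3 counts lay between 0.149 and 0.193 CPM. Intervals of this kind cover counting error only, since reads copied by PCR are not independent molecules. Levels between genes are given as RPKM, here CPM divided by the gene length in kilobases from the table. Each pair of libraries in a group differed by more than sampling noise (chi-square per degree of freedom between 13.8 and 81.8).

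The cells were checked against marker genes first. Kit, the receptor used to select the original progenitors, stood between 196 and 239 CPM in the 6 libraries. Ptprc, which encodes the leukocyte antigen CD45, stood between 0.0992 and 3.58 CPM. Flt3 and Cd33, which were put in the same list of progenitor markers, reached at most 1.03 and 1.45 CPM. Cd34, also in that list, ranged from 1.16 to 16.4 CPM. By contrast, 7 erythroid markers summed to between 2322 and 7669 CPM in CBM and between 2901 and 5891 CPM in EBM, and 7 mast and basophil markers to between 669 and 1428 CPM and between 795 and 1288 CPM. Of the latter, Ms4a2, a chain of the IgE receptor, gave most. Tpsb2, a mast cell tryptase gene, had at most 4 counts in a library. Markers of mature neutrophils summed to between 2.33 and 117 CPM in CBM and between 17.5 and 90.3 CPM in EBM, and those of monocytes and macrophages to at most 12.9 CPM. The 7 osteoblast and stromal markers summed to at most 1.16 CPM in CBM and 1.39 CPM in EBM, with Alpl at 0 in every library. The defining markers of granulocytes and monocytes were low beside erythroid and mast cell genes, so the factors are called myeloid here only for what they are known for. In such bulk samples, fewer cells of a type and less RNA per cell cannot be told apart.

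In order of mean RPKM the factors were Gata2 (171), Gfi1b (114), Gata1 (98.0), Tal1 (60.8), Myb (34.5), Spi1 (33.7), Cebpb (0.579), Cebpe (0.290), Cebpa (0.101) and Gfi1 (0.0936). These are a description over the 6 libraries. Gata2 stood at the 98.2nd percentile of levels among the 13352 genes tested and Spi1 at the 86.9th. The step from Spi1 to Cebpb was 58.2-fold in mean RPKM, and the lowest Spi1 value (25.4 RPKM) lay above the highest Cebpb value (1.15 RPKM).

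Neighbours in this order often overlapped. Gata2 was above Gfi1b in 5 of 6 libraries, and Gfi1b above Gata1 in only 3. The ranges of Gata1 and Tal1 did not overlap (1.61-fold between means), nor did those of Tal1 and Myb (1.76-fold). Myb and Spi1 overlapped, with Myb higher in 2 of 6 libraries, and so did each neighbouring pair from Cebpb to Gfi1.

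**Figure D1:**
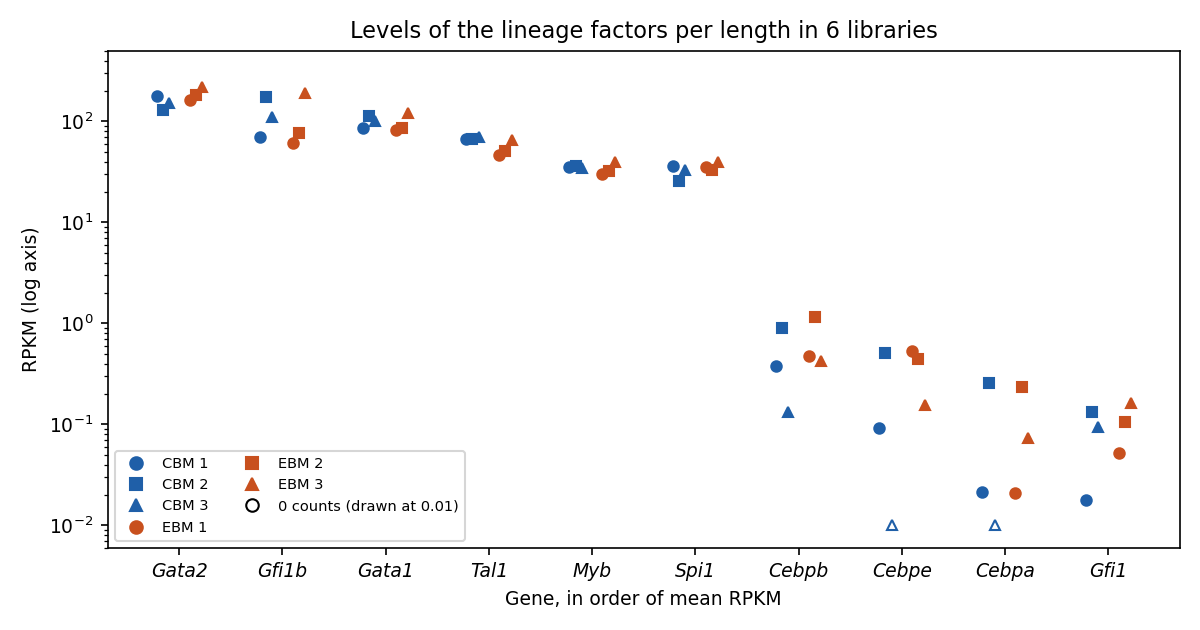
RPKM on a log axis for the 10 factors in order of mean level, with blue symbols for the 3 CBM libraries, orange for the 3 EBM libraries, 1 shape per replicate number and open symbols for 0 counts, drawn at 0.01. Gata2, Gfi1b, Gata1, Tal1, Myb and Spi1 lie at 25.4 RPKM or above in every library, and Cebpb, Cebpe, Cebpa and Gfi1 at 1.15 RPKM or below.

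To learn whether these factors differed between the regions, all genes were tested together. In the edgeR quasi-likelihood test of EBM against CBM, 0 of 13352 genes passed an adjusted p of 0.05, and 1056 had an unadjusted p under 0.05, 4.01% of the genes tested being higher in EBM at that p and 3.90% lower. The filter on low counts was passed by 8 of the 10 factors. Of these 8, 0 passed the adjusted p and 0 had an unadjusted p under 0.05. DESeq2 called 1.07% of 12280 genes higher and 0.366% lower at an adjusted p under 0.05, and 0 of the 6 factors for which it gave an adjusted p, with 0 at an unadjusted p under 0.05.

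Tal1 was the factor nearest to a difference. In CBM it had 5112, 5558 and 6144 counts, and in EBM 3659, 4008 and 4412. These equal 291, 293 and 305 CPM in CBM and 202, 223 and 283 CPM in EBM. The groups did not overlap, with every EBM library below every CBM library and EBM replicate 3 closest to CBM. CBM averaged 296 ± 7.62 CPM and EBM 236 ± 42.3 CPM (SD, n = 3 each), or 1.25-fold between them. The log2 fold change was -0.33 (SE 0.14), and edgeR's p was 0.0503 before and 0.632 after adjustment. The exact two-sided permutation test of the 20 relabellings gave p = 0.1, the smallest it allows. Tal1 was 1 of the 8 factors tested whose groups did not overlap with EBM below, and 7.65% of all genes tested did the same. None had EBM wholly above CBM, against 7.47% of all genes. Without EBM replicate 3 the log2 fold change of Tal1 was -0.49 and its adjusted p 0.259, and over 12 alternative fits it lay between -0.49 and -0.23 with an unadjusted p under 0.05 in 6 of them and an adjusted p of at least 0.259.

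Gata2 was the most abundant of the factors. It had 17048, 13297 and 16614 counts in CBM and 16022, 17721 and 18279 in EBM. On the CPM scale these are 970, 700 and 824 in CBM and 884, 986 and 1174 in EBM. The highest value was in EBM replicate 3 and the lowest in CBM replicate 2, and the groups overlapped because CBM replicate 1 stood above EBM replicate 1. CBM averaged 831 ± 135 CPM and EBM 1015 ± 147 CPM (SD, n = 3 each). The log2 fold change was 0.29 (SE 0.16, edgeR adjusted p = 0.725). Over the alternatives this log2 fold change lay between 0.16 and 0.41. The difference of the means was larger than either SD but did not pass the test. Without EBM replicate 3 or CBM replicate 2 the log2 fold change was 0.16 or 0.18. Without CBM replicate 1 it was 0.41, with an edgeR p of 0.0422 before and 0.706 after adjustment.

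Gata1 gave 211, 277 and 244 CPM in CBM and 202, 207 and 292 CPM in EBM. CBM replicate 2 and EBM replicate 3 were the highest of their groups. EBM replicates 1 and 2 lay below every CBM library, so the groups of Gata1 overlapped only because EBM replicate 3 stood above them all. Its means were 244 ± 32.9 and 234 ± 50.9 CPM (SD, n = 3 each), with a log2 fold change of -0.06 (SE 0.18, edgeR adjusted p = 0.983).

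Gfi1b varied most among the abundant factors. In CBM it had 2275, 6009 and 4087 counts, and in EBM 2009, 2541 and 5459. Scaled to CPM, this gave 129, 316 and 203 for CBM and 111, 141 and 351 for EBM. The same libraries as for Gata1, CBM replicate 2 and EBM replicate 3, were the highest, and the whole range over 6 libraries was 3.16-fold, against 1.45-fold for Gata1 and 1.31-fold for Myb. The spread of log2 CPM within groups placed Gfi1b at the 92.6th percentile of all genes tested and Myb at the 29.5th. The region means of Gfi1b were 216 ± 94.2 and 201 ± 131 CPM (SD, n = 3 each). Its log2 fold change was -0.11 (SE 0.49, edgeR adjusted p = 0.989), and without EBM replicate 3 it was -0.78 with an adjusted p of 0.653.

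Spi1 had 97.1, 68.4 and 88.6 CPM in CBM and 95.8, 88.8 and 106 CPM in EBM. CBM replicate 2, high for Gata1 and Gfi1b, was the lowest library for Spi1. The means were 84.7 ± 14.7 and 96.9 ± 8.74 CPM (SD, n = 3 each), and the log2 fold change was 0.19 (SE 0.15, edgeR adjusted p = 0.837), or 0.064 without CBM replicate 2. Myb had 315, 322 and 308 CPM in CBM and 268, 285 and 352 CPM in EBM. The CBM libraries of Myb lay close together and within the EBM range, with a log2 fold change of -0.06 (SE 0.12, edgeR adjusted p = 0.976).

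**Figure D2:**
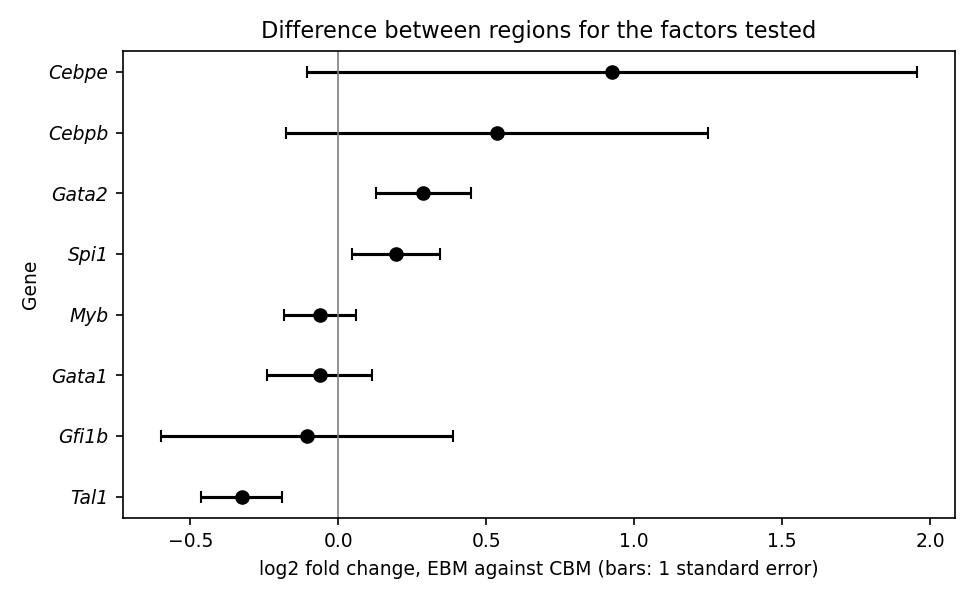
Log2 fold change of EBM against CBM from the edgeR fit for the 8 factors tested, with bars of 1 standard error and a line at 0. Tal1 (-0.33) and Gata2 (0.29) lie farthest from 0 in units of their error, and Cebpe (0.93, SE 1.03) and Cebpb (0.54, SE 0.71) have the widest bars.

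Cebpa, Cebpb, Cebpe and Gfi1 were read at 31 counts or fewer in every library. Cebpb stood above the floor of 3 counts in all 6 libraries, and Cebpa, Cebpe and Gfi1 were at or below it in some. Cebpb had 10, 26 and 4 counts in CBM and 13, 31 and 10 in EBM, with a log2 fold change of 0.54 (SE 0.71, edgeR adjusted p = 0.944). Cebpe had 2, 12 and 0 counts in CBM and 12, 10 and 3 in EBM, with a log2 fold change of 0.93 (SE 1.03, edgeR adjusted p = 0.924). Without CBM replicate 2 the log2 fold change of Cebpe was 2.998 (edgeR adjusted p = 0.605, unadjusted p under 0.05), and without CBM replicate 3 it was 0.33.

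Cebpa, which is needed to form granulocyte precursors, had 1, 13 and 0 counts in CBM and 1, 11 and 3 in EBM. Its highest count in each region was in replicate 2, and it did not pass the filter on low counts. The 0 counts of CBM replicate 3 allow a level of up to 0.149 CPM. Gfi1 had 1, 8 and 6 counts in CBM and 3, 6 and 8 in EBM, and was also not tested. The groups overlapped for all 4 genes.

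Within each region Cebpa and Cebpb had most counts in the library with most neutrophil RNA. The other C/EBP genes did not follow this in both regions. Cebpe had most counts within EBM in replicate 1 (12), and Cebpd had fewest within CBM in replicate 2 (11). The 6 mature neutrophil markers summed to 2.96, 117 and 2.33 CPM in CBM and to 25.3, 90.3 and 17.5 CPM in EBM, with CBM replicate 2 and EBM replicate 2 the highest. Ngp, a granule protein gene of neutrophils, had 1.54, 47.9 and 0.992 CPM in CBM and 12.2, 42.8 and 7.45 CPM in EBM. Ptprc moved alike, with 0.228, 3.58 and 0.0992 CPM in CBM and 1.77, 3.28 and 1.54 CPM in EBM. The part of such cells in the C/EBP counts was not tested.

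**Figure D3:**
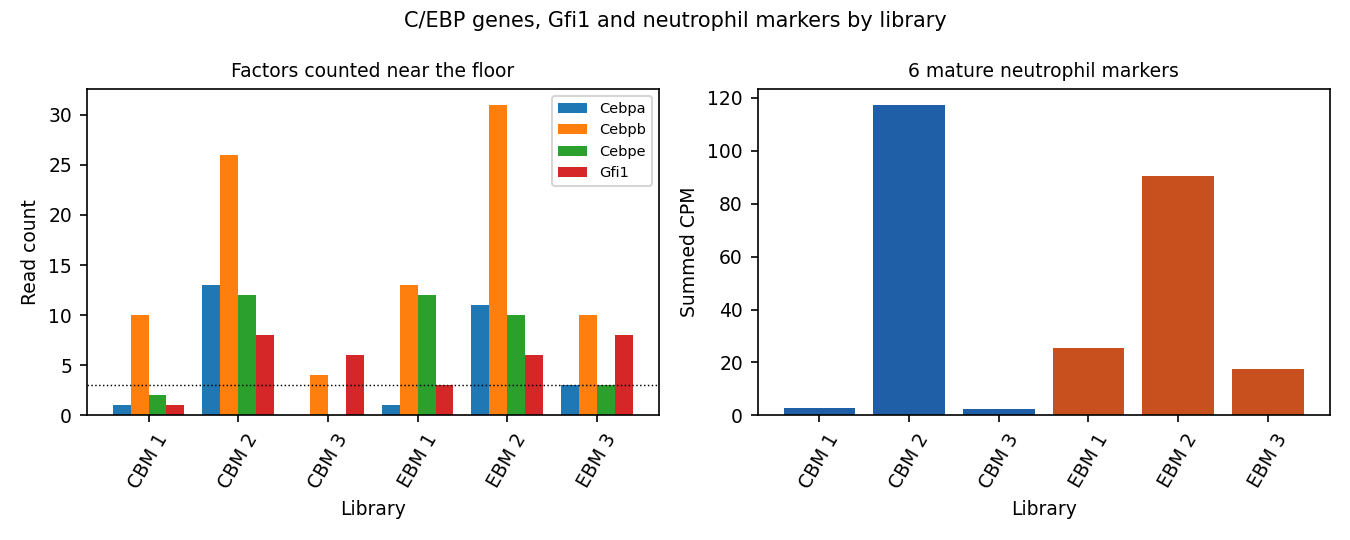
Left, read counts of Cebpa, Cebpb, Cebpe and Gfi1 in each library, with a dotted line at the floor of 3 counts. Right, the summed CPM of 6 mature neutrophil markers in the same libraries (blue CBM, orange EBM), which is highest in CBM replicate 2 (117) and EBM replicate 2 (90.3), where Cebpa (13 and 11 counts) and Cebpb (26 and 31 counts) are highest too.

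Gata1 and Gfi1b were highest in the libraries where the sum of the erythroid markers was highest, though the beta-globin genes differed from that sum. The 7 erythroid markers summed to 2322, 7669 and 3248 CPM in CBM and to 2901, 4193 and 5891 CPM in EBM, highest in CBM replicate 2 and EBM replicate 3. Klf1, the erythroid factor that GATA1 is known to activate, had 132, 210 and 178 CPM in CBM and 102, 124 and 254 CPM in EBM. Slc4a1, the anion exchanger of the red cell membrane, had 285, 2236 and 866 CPM in CBM and 433, 771 and 2125 CPM in EBM. Epor, the erythropoietin receptor, was highest in the same 2 libraries, with 209 and 161 CPM. Hbb-bs, an adult beta-globin gene, had 1117, 1434 and 808 CPM in CBM and 1279, 1338 and 807 CPM in EBM. It was highest in CBM replicate 2 but lowest of all in EBM replicate 3, and Hbb-bt, its neighbour, was also lowest within EBM in replicate 3 (73.1 CPM). Hba-a1 and Hba-a2, near-identical globin genes between which reads may be split, are uncertain one by one. Reads may be split between Hbb-bs and Hbb-bt too, which was not examined. The part of erythroid RNA in the spread of Gata1 and Gfi1b was not tested.

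Some mast cell genes were lowest in those same libraries. Cpa3, the mast cell carboxypeptidase, had 224, 3.74 and 44.3 CPM in CBM and 210, 180 and 5.20 CPM in EBM. Fcer1a, another chain of the IgE receptor, had 106, 4.26 and 17.6 CPM in CBM and 98.0, 76.5 and 3.47 CPM in EBM. Both were lowest in CBM replicate 2 and EBM replicate 3, and Cma1, a mast cell chymase, was lowest there too (2.84 and 2.70 CPM). Ms4a2 was also lowest there (652 and 782 CPM). Other markers of the same list differed. Mcpt8, at 23 counts or fewer, was highest in its region in CBM replicate 2 (1.21 CPM) and EBM replicate 3 (0.514 CPM). Prss34 was highest in CBM replicate 2 (4.95 CPM) and lowest in EBM replicate 3 (1.16 CPM). Gata2 did not share the pattern of Cpa3, Fcer1a and Cma1, being lowest in CBM replicate 2 but highest in EBM replicate 3. Within each region the library with the highest erythroid sum, Klf1 and Slc4a1 had the lowest values of Cpa3, Fcer1a and Cma1. In EBM the same library was lowest for Hbb-bs and Hbb-bt as well.

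**Figure D4:**
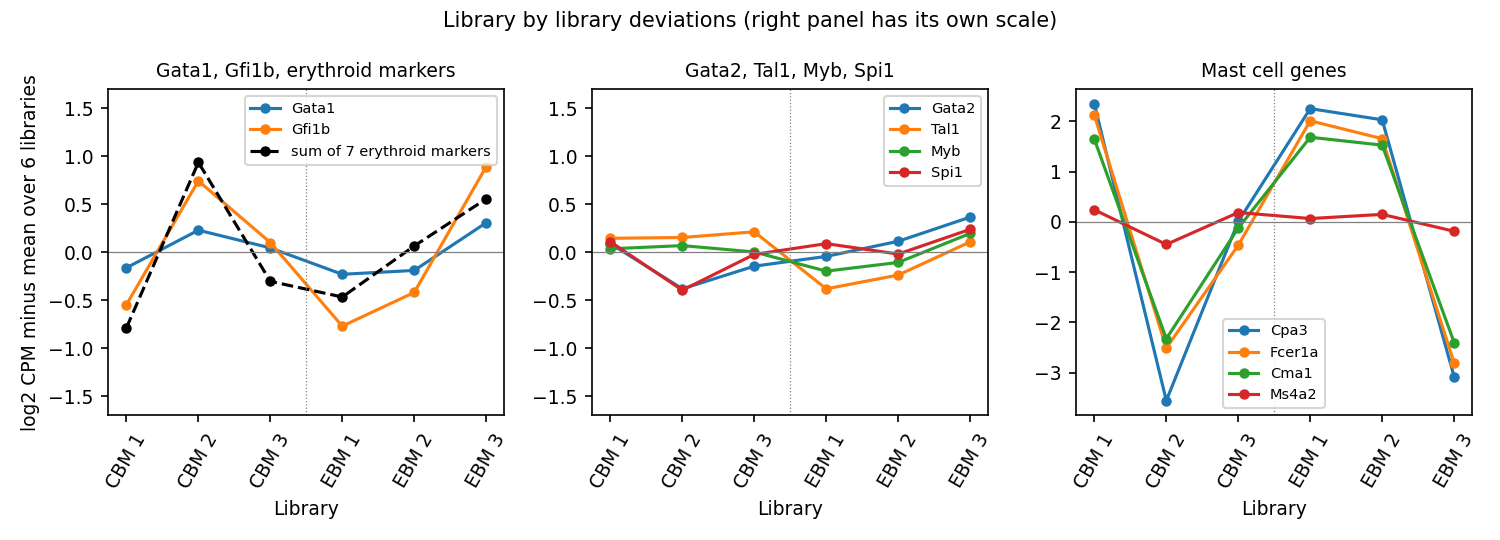
Log2 CPM minus its mean over the 6 libraries, by library, for Gata1, Gfi1b and the sum of 7 erythroid markers (left), for Gata2, Tal1, Myb and Spi1 (middle) and for 4 mast cell genes (right, on a wider scale). Gfi1b and the erythroid sum peak in CBM replicate 2 and EBM replicate 3, where Cpa3 is at 3.74 and 5.20 CPM.

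Ratios within a library, which need no scaling between libraries, were taken for 4 pairs as log2 of counts per kilobase with 0.5 counts added. A change from GATA2 to GATA1 is known from erythroid maturation. The log2 ratio of Gata2 to Gata1 was 1.05, 0.19 and 0.61 in CBM and 0.99, 1.10 and 0.86 in EBM, so Gata2 exceeded Gata1 in every library. It was smallest in CBM replicate 2, and the groups overlapped. Its mean was 0.62 ± 0.43 for CBM and 0.98 ± 0.12 for EBM (SD, n = 3 each, exact two-sided permutation p = 0.3), and the difference of 0.37 was 0.15 without CBM replicate 2.

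PU.1 and GATA1 are known to oppose each other. The log2 ratio of Spi1 to Gata1 was between -2.16 and -1.27 in CBM, lowest in CBM replicate 2, and between -1.61 and -1.22 in EBM, and Gata1 was higher in every library. The difference of the means, 0.28 (0.039 without CBM replicate 2), had an exact two-sided permutation p of 0.5 (n = 3 each). The log2 ratio of Gfi1 to Gfi1b lay between -11.37 and -9.41, with a difference of 0.74 between regions (exact two-sided permutation p = 0.2, n = 3 each). That of Cebpb to Cebpa lay between 1.78 and 3.98 and differed by -0.25 (exact two-sided permutation p = 1, n = 3 each), and both of these ratios rest on few counts. In all, 4 such ratios were tested, and the exact permutation test of 3 libraries against 3 cannot go below p = 0.1.

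Partners, other family members and known targets were read from 10 lists that hold 153 genes, of which 121 were tested, 0 passed the adjusted p in edgeR and 13 had an unadjusted p under 0.05. Of the genes, 6 are in more than 1 list. The median log2 fold change over all genes tested was 0.00, and 4.01% and 3.90% of them had an unadjusted p under 0.05 in the higher and the lower direction.

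Of 11 partners of GATA factors and TAL1, 10 were tested and 0 had an unadjusted p under 0.05, with a median log2 fold change of -0.05. Ldb1, which links the complex, averaged 780 ± 88.7 CPM for CBM and 767 ± 77.8 CPM for EBM (SD, n = 3 each). Lmo2, its LIM-domain partner, stood at 334 ± 99.9 and 290 ± 66.1 CPM, with its highest values in CBM replicate 2 (442 CPM) and EBM replicate 3 (365 CPM). Lyl1, the closest relative of Tal1 in the list, had a log2 fold change of -0.26 (SE 0.16, edgeR adjusted p = 0.748). Of the 10 partners tested, 8 lay below 0 and 2 above. Tcf12 was 1 of the latter, at 0.18 (SE 0.085, edgeR adjusted p = 0.677). Its EBM libraries stood wholly above CBM, as did those of 7.47% of all genes tested. Of 9 co-repressors used by GFI factors, 8 were tested (median -0.05), and 1 had an unadjusted p under 0.05. This was Rcor3, a CoREST scaffold gene with a log2 fold change of -0.45 (SE 0.14, edgeR adjusted p = 0.490).

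Of 8 further genes of the C/EBP family and of C/EBP degradation, 7 were tested. All 7 had a log2 fold change above 0, from 0.067 to 2.12, with a median of 0.31 against 0.00 over all genes tested. Of these, 2 had an unadjusted p under 0.05, against 4.01% of all genes tested in that direction. Both stood in EBM wholly above CBM, as did 7.47% of all genes tested. Whether the list differs as a set was not tested. Trib1 encodes a pseudokinase that directs C/EBP-alpha to degradation, and had 2.05, 2.84 and 1.64 CPM in CBM and 9.83, 13.3 and 5.27 CPM in EBM. Its log2 fold change was 2.12 (SE 0.39), with an adjusted p of 0.189 by edgeR and 4.24e-05 by DESeq2. Cebpg, a family member without an activation domain of its own, had a log2 fold change of 0.41 (SE 0.11, edgeR adjusted p = 0.379). Cebpd, which is induced by cytokines, stood between 0.514 and 1.56 CPM. Of 11 cofactors of PU.1 and MYB, 8 were tested (median -0.10) and 0 had an unadjusted p under 0.05. Jun, an AP-1 factor that PU.1 can recruit, ranged from 217 to 994 CPM within CBM, and Men1, a partner of MLL, stood at 59.5 ± 7.03 and 55.7 ± 5.65 CPM (SD, n = 3 each).

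Of 38 other lineage factors of blood, 29 were tested, and the median of their log2 fold changes was 0.19. At an unadjusted p under 0.05, 3 were higher in EBM, namely Nr4a1, an immediate-early nuclear receptor (2.89, edgeR adjusted p = 0.435), Egr2, an immediate-early zinc finger factor (1.96, adjusted p = 0.596), and Nfe2l2, the NRF2 gene of the oxidative response (0.49, adjusted p = 0.361). At the same p 4 were lower, Myc among them. Nfe2, a factor of platelet and globin genes, had 138, 151 and 134 CPM in CBM and 89.2, 92.9 and 115 CPM in EBM, without overlap (log2 fold change -0.51, SE 0.12, edgeR adjusted p = 0.330). Id1, an inhibitor of helix-loop-helix factors, had a log2 fold change of -0.98 (SE 0.29, edgeR adjusted p = 0.446). Tcf7l2, a Wnt effector, was the fourth, at -0.59 (SE 0.20, edgeR adjusted p = 0.540).

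Myc, a known target of MYB that was put in both lists, had 133, 108 and 137 CPM in CBM and 53.8, 51.3 and 52.8 CPM in EBM. Its log2 fold change was -1.26 (SE 0.11), with an adjusted p of 0.0583 by edgeR and 2.39e-13 by DESeq2. Of 10 MYB targets, 9 were tested, and 2 had an unadjusted p under 0.05, both lower in EBM. The other was Ccne1, a G1 cyclin gene (-0.75, SE 0.27, edgeR adjusted p = 0.552). The median over the MYB targets was 0.23, opposite in sign to these 2 genes.

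Of 22 targets of PU.1 and C/EBP-alpha, 17 were tested and all 17 had a log2 fold change above 0, from 0.03 to 1.67. Their median was 0.21, against 0.00 over all genes tested. Of them 1, Myd88, an adaptor of Toll-like receptors, had an unadjusted p under 0.05 (0.32, SE 0.10, edgeR adjusted p = 0.520), against 4.01% of all genes tested in that direction. The 17 signs are not separate, since some of these genes moved together between libraries. Cybb (0.08, SE 1.41) and Lyz2 (0.26, SE 1.30) were both highest within each region in replicate 2. The mature neutrophil markers summed to 2.96, 117 and 2.33 CPM in CBM and to 25.3, 90.3 and 17.5 CPM in EBM. CBM replicate 2 had the highest sum, and CBM replicates 1 and 3 lay below every EBM library. The part of neutrophil RNA in these signs was not tested. Csf3r, the G-CSF receptor, stood at 2.58 CPM or less in every library, while Csf2rb, the common chain of the GM-CSF and IL-3 receptors, ranged from 334 to 1059 CPM and was lowest in CBM replicate 2. Of 11 targets of C/EBP-epsilon in secondary granules, 8 were tested (median 0.06) and 0 had an unadjusted p under 0.05. Those of highest level, Ngp and Camp, had log2 fold changes of 0.31 (SE 1.39) and 0.55 (SE 1.27).

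Of 24 erythroid and megakaryocytic targets of GATA1 and KLF1, 20 were tested, with a median log2 fold change of -0.09. Gp1ba, a platelet receptor gene, was the 1 with an unadjusted p under 0.05, and had 20.4, 12.7 and 17.2 CPM in CBM and 12.2, 10.5 and 7.45 CPM in EBM (log2 fold change -0.74, SE 0.25, edgeR adjusted p = 0.540). Of 15 targets of GATA2 and mast cell genes, 11 were tested and 0 had an unadjusted p under 0.05, with a median of 0.40. Ms4a2 stood at 905 ± 220 and 900.1 ± 106 CPM, and Il1rl1, the IL-33 receptor, at 1088 ± 234 and 999.6 ± 207 CPM (SD, n = 3 each). Hdc, which makes histamine, had the smallest p of this list, with 863, 376 and 594 CPM in CBM and 1492, 1349 and 598 CPM in EBM (log2 fold change 0.91, SE 0.41, edgeR adjusted p = 0.659).

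The genes most like Gata2, Spi1 and Cebpa in course over the 6 libraries were found by the root mean square difference of log2 CPM centred on each gene's mean. Nearest to Gata2 were Gm5555 (0.0509), Iqck (0.0643) and 1110025M09Rik (0.0762), against a median of 0.327 over the genes tested. All 3 stood at 3.02 CPM or less. Nearest to Spi1 were Mcfd2 (0.0485), S100a1 (0.0547) and Parp3 (0.0553), against a median of 0.304. Nearest to Cebpa were Adam8 (0.448), Lsp1 (0.452) and Cebpb (0.473), against a median of 1.10. The points are 6 libraries of 2 regions, and with 13352 genes some will be close by count alone.

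Reads shared between genes could touch these values in a few places. The sources used here do not say if the counting was stranded, and 4 of the factors overlap a gene on the opposite strand. Cebpb overlaps Tmem189, which had between 358 and 480 counts per library, so its few counts are uncertain. Myb overlaps Gm26577 (4 to 15 counts), Gfi1 overlaps A430072P03Rik (0 to 4 counts) and Cebpa overlaps Gm45091 (0 counts in every library). Among family members the longest stretch of identical transcript was 29 bases, between Cebpa and Cebpb, and 23 bases between Gata1 and Gata2.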

How the data were processed

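RNA-seq was analysed for 6 libraries of AE9a leukemia cells, 3 of CBM and 3 of EBM, grouped by GEO's labels. The authors deposited raw counts per gene, not normalized, with gene positions and lengths. Per the paper's methods the libraries were directional and made from rRNA-depleted RNA (the labels write mRNA). The submitters' processing notes name HISAT2 2.0.5 and mm10, and the counting tool is not given in the sources used here. GENCODE M21 holds 54409 of the identifiers, 98.3% at the same position.

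Depth was between 16436526 and 19462964 counts per library, and floors cover counting error only. Counts were filtered by filterByExpr, normalized by TMM and tested with the quasi-likelihood F-test of edgeR 4.0.16 in R 4.3.3, with Benjamini-Hochberg adjustment over 13352 genes and a threshold of 0.05. The SE is the absolute log2 fold change divided by the square root of F. No block was used in the main fit. The paper names an unpaired t-test for comparisons of 2 groups in general, and does not name the test for its RNA-seq. Single values were tested by exact permutation over 20 relabellings, on log2 CPM with a prior count of 2. Alternatives were DESeq2 1.42.0, limma-voom (limma 3.58.1), RLE size factors, no filter, at least 1 CPM in 3 libraries, a replicate block, 1 count added in ratios, and each library left out. The fits were run on simulated counts with log2 changes larger than those of Gata2, Gfi1b, Gata1, Tal1, Myb and Spi1 here. Their power for changes as small as these was not tested.

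The 10 genes, the 10 lists and the markers of 12 cell types were chosen with earlier results of these data known. Genes named in a list were up to 3 per direction with the smallest unadjusted p under 0.05, else the 2 of highest RPKM. The 3 genes nearest to Gata2, Spi1 and Cebpa and genes overlapping a factor were named by rule too. Tcf7l2, Lyl1, Tcf12, Cebpd, Csf3r, Csf2rb, Cybb, Lyz2 and Klf1 were chosen after their values were seen. So were Epor, Slc4a1, Cpa3, Fcer1a, Cma1, Hdc, Hbb-bs, Hbb-bt and other marker genes given with values.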

Additional observations from a re-analysis of the deposited data

How the results depend on the processing

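Under every alternative fit 0 of the factors tested passed an adjusted p of 0.05. Over all genes, 0 were called by edgeR (1056 at an unadjusted p under 0.05), by limma-voom (1080 at that p), with RLE size factors, with at least 1 CPM in 3 libraries, or with any library left out (0 to 0), while DESeq2 called 176 and edgeR without a filter on low counts 40. The cause of these 2 counts was not tested.

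Of 92 alternative values of the log2 fold changes of 8 factors, 84 kept their direction and 8, of 4 factors, did not, all with a library left out. With a library left out the value lay between -0.26 and 0.040 for Gata1 (0.040 without CBM replicate 2, 0.032 without EBM replicate 1 and 0.013 without EBM replicate 2), between -0.78 and 0.28 for Gfi1b (0.28, 0.19 and 0.090 without the same libraries), between -0.061 and 1.44 for Cebpb (-0.061 without EBM replicate 2) and between -0.20 and 0.015 for Myb (0.015 without EBM replicate 1). Tal1, Gata2, Spi1 and Cebpe kept their direction in all, but with a library left out Spi1 lay between 0.064 (without CBM replicate 2) and 0.30, and Cebpe between 0.33 (without CBM replicate 3) and 2.998 (without CBM replicate 2). The 32 alternative values of the 4 ratio differences moved by less than 1 SD between replicates, a spread that is wide beside the differences. With a library left out they lay between 0.15 (without CBM replicate 2) and 0.58 (without CBM replicate 1) for Gata2 to Gata1, between 0.039 (without CBM replicate 2) and 0.49 (without CBM replicate 1) for Spi1 to Gata1, between 0.35 (without CBM replicate 1) and 0.98 for Gfi1 to Gfi1b, and between -0.92 (without CBM replicate 2) and 0.18 for Cebpb to Cebpa, whose sign turned without CBM replicate 3 (0.18) or EBM replicate 2 (0.061).

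The deviations of same-numbered libraries correlated at 0.68, -0.20 and 0.20. Between differently numbered libraries, CBM replicate 2 and EBM replicate 3 correlated at 0.51, and CBM replicate 1 and EBM replicate 2 at 0.31. With 3 libraries per region, these values cannot tell whether the replicate numbers pair the libraries. With the replicate block 0 genes were called (1203 at an unadjusted p under 0.05), and the log2 fold change of Tal1 was -0.34 (adjusted p = 0.523 by edgeR).

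Cebpa, Cebpb, Cebpe and Gfi1 had 31 counts or fewer in each library, and Cebpb and Cebpe were also among the genes with the widest spread within groups (95.5th and 96.8th percentile).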

Other observations

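Some marker and listed genes not described so far also varied between libraries. Prg2, the major basic protein of eosinophils, had 0.341, 12.3 and 0.149 CPM in CBM and 0.883, 1.06 and 0.257 CPM in EBM, so that CBM replicate 2 stood apart. Acp5, a phosphatase of osteoclasts that other cells also make, had 269, 540 and 365 CPM in CBM and 258, 296 and 565 CPM in EBM, highest in the 2 libraries that were highest for Gfi1b, while the osteoclast gene Ocstamp was at 0 in every library and Ctsk at 4 counts or fewer. Gata3, a further GATA factor listed among T cell markers, had 38.2, 37.2 and 52.3 CPM in CBM and 30.8, 33.7 and 48.1 CPM in EBM, while the T cell receptor gene Cd3e had at most 1 count. Mpo, the myeloperoxidase gene of early granulocytes, had 1.65, 14.9 and 3.13 CPM in CBM and 21.2, 35.8 and 5.53 CPM in EBM, with overlapping groups (log2 fold change 1.67, SE 0.93, edgeR adjusted p = 0.725). Runx1, whose product is part of the AE9a fusion, had 722, 330 and 482 CPM in CBM and 616, 506 and 371 CPM in EBM. Within each region it was lowest in CBM replicate 2 and EBM replicate 3. Whether reads of the AE9a transgene were counted on Runx1 was not tested.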
